A study of Mus musculus with 4 samples.

Results

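Interferon response genes are the genes that a cell switches on when a type I interferon binds its receptor. A list of 45 such genes of the mouse was followed here in single cells of inflamed ankle synovium, the lining of the joint. The list was put together by gene name, with earlier results of these data known, and 43 of the 45 were found among the 32285 genes of the deposited count matrices. Mx1 and Mx2 were not analysed here. All 43 had at least 1 UMI (unique molecular identifier, a count of captured RNA molecules) in each of the 4 libraries. The study used C57BL/6 mice in which CD45.2 recipients had been given CD45.1 bone marrow with the ankle kept out of the radiation field, so that both marrow-derived donor cells and host cells of the joint remained, told apart by the CD45 variant. Arthritis was started with serum of K/BxN mice, which carries antibodies that cause joint inflammation. The groups were 1 library each of untreated chimeras (baseline, day 0) and of chimeras at the peak (day 7), the plateau (day 14) and the resolution (day 56) of serum-transfer arthritis. The titles of the 3 arthritis samples hold the unexplained word "Clo-lip", absent at baseline, so whatever it stands for and the arthritis cannot be told apart, and neither the number nor the age of the mice per library is given in the sources used here. RNA and 92 antibodies were read together in each cell (CITE-seq) after a sort for live CD45+ CD11b+ cells negative for CD177, Ly6C, MHC class II, CD64, Ly6G and SiglecF.

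The barcodes used had 300 or more genes, and mitochondrial UMIs made up no more than 10% of theirs, which left 1071, 5941, 2828 and 4611 barcodes from baseline to resolution, with median depths of 4912 to 8250 gene UMIs. Any pair of libraries shared between 0 and 9 kept barcodes. The CD45 antibodies put 808, 5576, 2402 and 3249 barcodes in the CD45.1 class and 190, 219, 239 and 730 in the CD45.2 class. Clusters 12 and 16, with 392 and 170 barcodes, were fibroblast-like and cluster 19, with 56 of its 71 barcodes at baseline, was neutrophil-like, although the sort was for CD45+ cells without Ly6G. The Ly6C antibody, whose target the sort excluded, gave 525037 UMIs at baseline, 188853 at the peak, 32503 at the plateau and 18912 at resolution. Per 10000 antibody UMIs it gave 1332, 301.1, 97.3 and 52.9 in the 50% of barcodes lowest in the interferon response genes. In the highest 10% the values were 3419, 296.2, 198.5 and 268.7. The baseline library thus stood apart in this antibody, and the part of this in the comparisons with baseline was not tested. Since each stage is a single library, stages are compared by size and without a test, and the 95% intervals cover counting error only.

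Type I interferons, among them interferon beta and the interferon alphas, bind the receptor IFNAR1/IFNAR2 and activate the kinases JAK1 and TYK2. Their signal assembles ISGF3, a complex that contains STAT2 and IRF9 and binds the interferon-stimulated response element (ISRE) in the promoters of response genes. The products block viral RNA and protein synthesis, sense nucleic acids, attract lymphocytes and restrain the pathway itself. Monocytes and macrophages are strong responders, and their interferon programme has been studied in inflamed joints of people and mice.

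The ISRE ties most of these genes together at the level of sequence, and the promoters of members at both ends of the later results are shown for that reason. RefSeq windows (build GRCm38.p6, from 250 bases before to 50 after a transcription start) were given for 36 of the 45 members. An ISRE core, written GAAANNGAAA and searched on both strands with overlapping matches counted, was found for 22 of the 36 members (61.1%) and for 1079 of all 27025 genes with a window (3.99%). The core of the gamma-activated site, TTCNNNGAA, the element of interferon gamma signalling, was found for 6 of 36 members (16.7%) and for 9.55% of all genes. Of the 34 distinct ISRE matches in members, 24 lay within 150 bases before the start. A match describes letters and not binding. The following 150-base runs end at the last base before the start and are written along the gene's strand, with ISRE cores of either strand in capitals, so that a core of the other strand reads TTTC before and after the free bases. Isg15 lies at chr4:156200819-156200968 on the minus strand and has 3 overlapping cores, which begin 78, 72 and 66 bases before the start. Ifit3 lies at chr19:34583379-34583528 on the plus strand, Rsad2 at chr12:26456453-26456602 on the minus strand and Bst2 at chr8:71537473-71537622 on the minus strand. Irf9, at chr14:55603835-55603984 on the plus strand, is shown as a member without a core in this run.
Isg15: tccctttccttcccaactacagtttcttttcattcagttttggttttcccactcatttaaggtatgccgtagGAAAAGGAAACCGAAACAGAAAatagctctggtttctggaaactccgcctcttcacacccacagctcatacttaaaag
Ifit3: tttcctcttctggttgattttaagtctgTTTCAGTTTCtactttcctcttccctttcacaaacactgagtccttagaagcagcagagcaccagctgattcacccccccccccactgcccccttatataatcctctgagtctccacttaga
Rsad2: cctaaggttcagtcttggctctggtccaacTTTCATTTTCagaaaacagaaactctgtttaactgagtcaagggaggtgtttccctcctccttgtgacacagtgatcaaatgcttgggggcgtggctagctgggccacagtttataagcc
Bst2: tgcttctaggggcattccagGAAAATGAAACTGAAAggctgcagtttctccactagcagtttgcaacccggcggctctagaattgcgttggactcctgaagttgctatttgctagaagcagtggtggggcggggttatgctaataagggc
Irf9: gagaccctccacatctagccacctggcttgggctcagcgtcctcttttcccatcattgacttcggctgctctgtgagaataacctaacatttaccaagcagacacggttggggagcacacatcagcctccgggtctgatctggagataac

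Members of different roles carried the core. The next 30-base sites are written on the strand on which the core reads GAAA first, with the core in capitals. The site of Ifit1 lies at chr19:34640775-34640804, that of Oas3 at chr5:120777715-120777744, that of Cxcl10 at chr5:92349083-92349112, that of Gbp7 at chr3:142530273-142530302 and that of Stat2 at chr10:128270266-128270295. Ifit3, at chr19:34583397-34583426, and its neighbour Ifit3b, at chr19:34607793-34607822, hold the same 30 bases. How reads that fit both of these genes were treated in the counts was not examined.
Ifit1: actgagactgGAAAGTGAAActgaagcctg
Oas3: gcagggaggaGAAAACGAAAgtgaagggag
Cxcl10: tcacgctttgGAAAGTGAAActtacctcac
Gbp7: atggagaactGAAACTGAAActgcacacac
Stat2: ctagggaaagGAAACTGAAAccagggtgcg
Ifit3: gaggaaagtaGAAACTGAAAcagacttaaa
Ifit3b: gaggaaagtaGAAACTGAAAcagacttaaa

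The members' share of all gene UMIs was used as the score of the programme. It was 0.184% at baseline (interval 0.181 to 0.186), 0.429% at the peak (0.427 to 0.431), 0.141% at the plateau (0.140 to 0.143) and 0.0736% at resolution (0.0726 to 0.0746). The peak library thus stood highest and the resolution library lowest, below baseline. These shares rest on 21958, 251817, 41792 and 19939 member UMIs. Isg15 alone gave 6.599%, 15.8%, 9.92% and 4.95% of the member UMIs, and the 5 members with most UMIs gave between 40.1% and 46.4% of them, so no single gene made up most of the score. Without cluster 9, a group of 434 barcodes described further on that came almost entirely from the peak library, the peak share was 0.303%.

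The first comparison sets the peak library against the baseline library. Of the 43 members, 41 stood higher at the peak than at baseline, 21 of them by at least 2-fold and none lower by as much, with a median log2 ratio of 0.99. Among all 13084 genes with enough UMIs, 8.87% were at least 2-fold higher and 12.5% at least 2-fold lower, and their median log2 ratio was -0.13. The ratios differed by role: the median was 8.11-fold for the chemokines, 4.04-fold for the tetratricopeptide proteins, 2.87-fold for the ISG15 system and 1.51-fold for the transcription factors. Scaling by TMM totals, which moved the median of all genes by 0.20 on the log2 scale, put 32 members past 2-fold, with 11.2% of all genes higher and 9.66% lower. Without cluster 9, 10 members were past 2-fold.

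The tetratricopeptide proteins, which bind viral RNA ends and hinder translation, were all higher at the peak than at baseline, with 5 of 5 past 2-fold. Ifit1bl1 stood at 3.01, 32.9, 1.89 and 1.03 CPM (UMIs of the gene per 1000000 gene UMIs) from baseline to resolution, Ifit1 at 9.70, 77.5, 10.7 and 3.91, and Ifit3 at 32.4, 116.8, 14.97 and 9.67. All 3 were highest at the peak and lowest at resolution. The rise from baseline to peak was 10.9-fold for Ifit1bl1 (interval 7.86 to 15.7), 7.99-fold for Ifit1 (6.64 to 9.69) and 3.61-fold for Ifit3 (3.26 to 4.01), and the smallest of the group was Ifit3b, a near copy of Ifit3, at 2.85-fold (2.27 to 3.62).

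The ISG15 system attaches a ubiquitin-like protein to targets: Isg15 is the tag, Herc6 the ligase that attaches it in mice, and Usp18 removes it and also dampens the interferon receptor. Isg15 stood at 121.2, 675.5, 140.1 and 36.4 CPM from baseline to resolution. It was 5.58-fold higher at the peak (5.29 to 5.88), and the plateau library had returned close to the baseline value. Herc6 moved least in this group, from 18.0 to 33.0 CPM (1.83-fold, 1.59 to 2.12). Rsad2, which encodes viperin, an enzyme that makes a chain-terminating nucleotide, stood at 32.4, 128.5, 15.01 and 7.71 CPM. Cmpk2, the neighbouring gene for a nucleotide kinase, stood at 16.4, 24.5, 3.68 and 5.20. Rsad2 was thus 3.97-fold higher at the peak (3.59 to 4.41) and Cmpk2 1.497-fold (1.29 to 1.75).

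The oligoadenylate synthetases make the messenger that activates RNase L, and they did not move as a block. Oasl1, a relative that lacks this activity, stood at 5.35, 33.1, 5.58 and 2.84 CPM and Oasl2 at 28.2, 66.9, 19.7 and 8.93. Oas1a stood at 30.2, 26.1, 24.3 and 11.96. Oasl1 was 6.19-fold higher at the peak than at baseline (4.83 to 8.07), whereas the ratio of Oas1a was 0.866 (0.771 to 0.973), the lowest of the 43 members. Oas1a and Irf9 were the members with a ratio under 1, and with TMM totals 42 of the 43 ratios were above 1.

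Among the transcription factors, Irf7, which amplifies interferon production and response, stood at 126.7, 221.3, 56.0 and 34.4 CPM. Irf9, the DNA-binding part of ISGF3, stood at 45.4, 42.1, 28.0 and 21.3. Irf7 was 1.75-fold higher at the peak (1.66 to 1.84) and the ratio of Irf9 was 0.927, with an interval of 0.844 to 1.02 that includes 1. Of the nucleic acid sensors 1 of 6 was past 2-fold, Ifi205, a member of the HIN200 family, at 2.38-fold (24.3 to 58.0 CPM). Ifi204, of the same family, stood at 182.5, 325.3, 124.1 and 70.5, and Dhx58, which encodes LGP2, a partner of the RNA sensors RIG-I and MDA5, at 23.6, 37.7, 16.8 and 9.45.

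The 2 chemokines, which attract activated T cells through CXCR3, were far apart in level. Cxcl10 stood at 43.5, 291.6, 39.9 and 15.2 CPM and was 6.71-fold higher at the peak (6.14 to 7.33). Cxcl9, which depends largely on interferon gamma, stood at 0.167, 2.04, 0.304 and 0.480, and with 2 UMIs at baseline its ratio of 12.2 had an interval of 3.31 to 102. Among the Schlafen proteins, which restrain growth and translation in leukocytes, Slfn4 stood at 9.53, 39.8, 7.37 and 0.997 and Slfn5 at 164.4, 312.1, 113.5 and 52.9. Slfn4 was 4.17-fold (3.46 to 5.08) and Slfn5 1.90-fold (1.81 to 1.99) higher at the peak.

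The GTPases, which attack the vacuoles of intracellular microbes, stood between 1.21-fold and 2.51-fold higher at the peak than at baseline. Ifi47 stood at 47.0, 105.8, 32.0 and 17.9 CPM, Gbp7 at 17.9, 44.97, 36.6 and 19.0 and Gbp3 at 20.7, 25.1, 15.4 and 13.2. At the peak Ifi47 was 2.25-fold, Gbp7 2.51-fold and Gbp3 1.21-fold higher. Among the other effectors, Bst2, whose protein tethers budding virions to the cell surface, stood at 185.9, 293.5, 197.7 and 100.8 and was 1.58-fold higher (1.51 to 1.65). Rtp4, a chaperone and viral inhibitor, stood at 45.16, 116.6, 80.4 and 14.9, and Parp14, an ADP-ribosyltransferase, at 70.2, 105.6, 38.7 and 30.4.

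**Figure D1:**
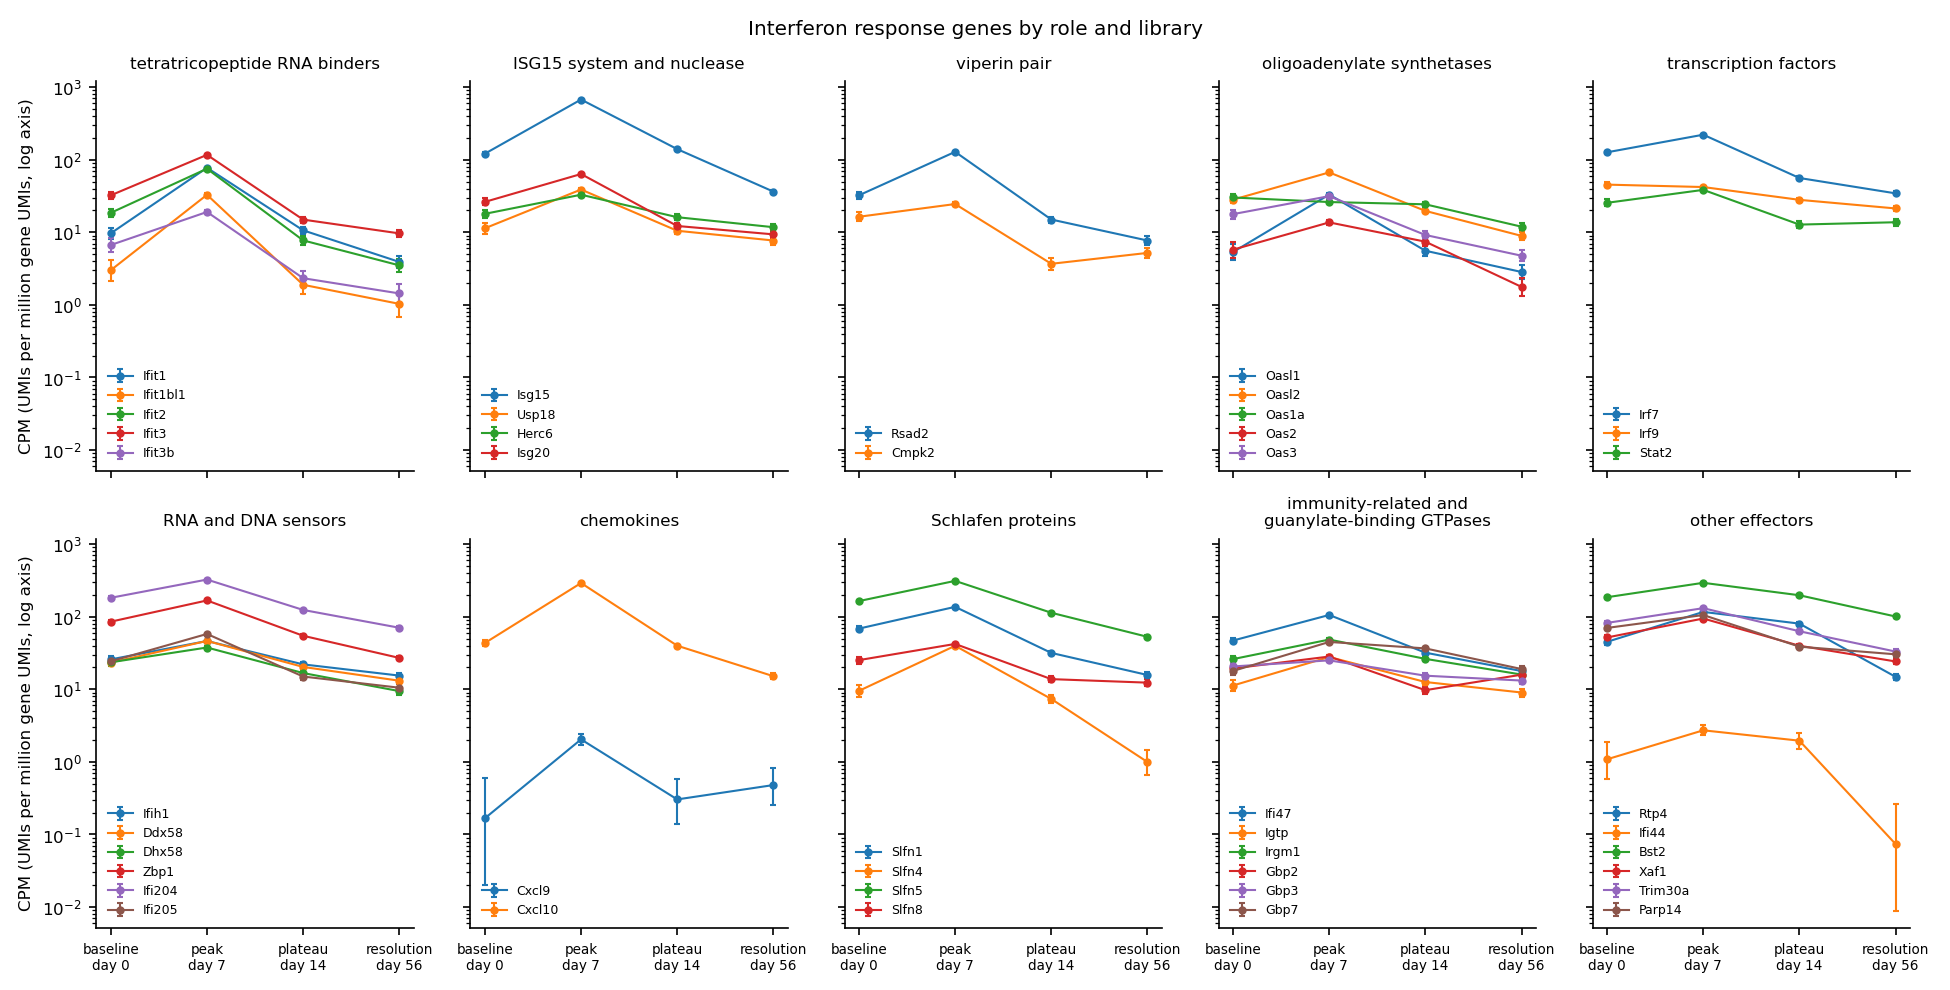
CPM (log axis) of the 43 members in the 4 libraries, by role, with 95% Poisson intervals as bars. Isg15 moves from 121.2 at baseline to 675.5 at the peak, while Oas1a and Irf9 stay near their baseline level there.

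From peak to plateau all 43 members were lower, 34 of them by at least 2-fold, with a median log2 ratio of -1.61. Of all 13501 genes 5.21% were at least 2-fold lower and 15.1% at least 2-fold higher, with a median of 0.30 (with TMM totals 36 members were lower, against 7.79% of genes lower and 8.90% higher). The fall was 17.4-fold for Ifit1bl1 (13.3 to 23.09), 8.56-fold for Rsad2 (7.78 to 9.45), 7.31-fold for Cxcl10 (6.89 to 7.76) and 4.82-fold for Isg15 (4.67 to 4.98). Cmpk2, which had been 1.497-fold higher at the peak, was 6.66-fold lower at the plateau (5.48 to 8.17). Some members kept most of their peak level: the difference was 1.23-fold for Gbp7 (1.14 to 1.32), 1.45-fold for Rtp4 and 1.07-fold for Oas1a (0.982 to 1.18). With equal weight to each of the 15 clusters found in both libraries, 11 members were at least 2-fold lower, against 4.41% of all genes. In CD45.2 barcodes alone 15 of 38 members were, against 3.02% of all genes.

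From plateau to resolution 13 of 42 members with enough UMIs were at least 2-fold lower and none higher, against 10.5% of all genes lower and 13.5% higher. The members lost most were Slfn4 (7.37 to 0.997 CPM, 7.39-fold) and Rtp4 (80.4 to 14.9, 5.41-fold), together with Ifi44, an effector with 2 UMIs left at resolution. Isg15 was 3.85-fold lower. Cmpk2 and Gbp2 stood higher at resolution than at the plateau, by less than 2-fold. With a mitochondrial limit of 5%, 21 members were at least 2-fold lower, against 9.13% of all genes. In CD45.2 barcodes 8 of 32 members were lower and 3 higher, against 12.98% and 15.8% of all genes.

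At resolution the programme stood below its starting level. Of 41 members with enough UMIs, 29 were at least 2-fold lower than at baseline and none was higher by as much, against 5.6% of all genes lower and 12.3% higher (6.80% and 9.54% with TMM totals). The median log2 ratio of the members was -1.34 and that of all genes 0.18. Slfn4 was 9.57-fold lower (6.25 to 15.1), Ifit2 5.30-fold (4.15 to 6.81), Rsad2 4.196-fold (3.54 to 4.99) and Irf7 3.68-fold (3.39 to 4.00). Gbp7 (17.9 and 19.0 CPM) had a ratio whose interval includes 1. The count differed with the cells summed: 6 members were at least 2-fold lower with equal weight to each of 9 clusters, against 2.62% of all genes. In CD45.2 barcodes alone 1 of 30 members was lower, a share near that of all genes (2.18%), and 4 were higher, against 3.70% of all genes.

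The interferons themselves were almost not captured. Ifnb1, the gene of interferon beta, had 28 UMIs in 8 of 5941 barcodes at the peak (0.477 CPM, 0.317 to 0.689) and 0 UMIs in the other libraries. The peak value of 0.477 CPM was 1.90-fold the level of the 3 UMIs that a count of 0 allows at baseline. It was 4.70-fold the same floor at the plateau. These ratios leave out the counting error of the peak value, and Ifnb1 had too few UMIs for a 2-fold call. The Ifnb1 UMIs lay in CD45.1 barcodes of cluster 5, inflammatory macrophage-like (12 UMIs in 4 barcodes), cluster 9 (3 in 2), the cycling cluster 15 (1 in 1) and cluster 20, basophil-like (12 in 1). The listed interferon alpha and lambda genes had 0 UMIs in each library. Ifng, the gene of interferon gamma, had 31, 7, 0 and 19 UMIs, 30 of the 31 at baseline in cluster 21, which was led by Gzma, Ccl5 and Nkg7 of cytotoxic lymphocytes.

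Few receptor and transducer genes were past 2-fold. Of 6 receptor genes, 5 had enough UMIs and none was past 2-fold in the 4 comparisons of stages made here (peak with baseline, plateau with peak, and resolution with plateau and with baseline): Ifnar1 stood at 56.2, 98.4, 65.5 and 57.6 CPM and Ifnar2 at 176.5, 195.2, 155.4 and 140.4. Of 10 signal transducers 1 was at least 2-fold lower at the peak than at baseline, Irf8, a factor of monocyte and dendritic cell identity (100.9 to 49.4), and none was higher. Of 10 genes of upstream sensing 1 was lower at the peak, the RNA sensor gene Tlr7 (37.6 to 16.5), and of 5 brakes none was past 2-fold at the peak. Of all genes 12.5% were at least 2-fold lower at the peak, so the counts of transducers and sensing genes lay near that share. The brakes Socs1 (10.3 to 20.7 CPM, 2.01-fold) and Socs3 (119.3 to 256 CPM, 2.15-fold) were higher at resolution than at baseline. Among 34 further interferon-inducible genes 12 were at least 2-fold higher at the peak, against 8.87% of all genes. At the plateau 20 were at least 2-fold lower than at the peak, against 5.21% of all genes. At resolution 16 were at least 2-fold lower than at baseline, against 5.6% of all genes. Fcgr1, the gene of CD64, stood at 45.4, 293.9, 135.0 and 16.5, Ccl12, a monocyte chemokine, at 3.43, 21.4, 3.35 and 0.812, and Ms4a4c at 234.8, 519.2, 128.2 and 65.7.

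The programme was spread unevenly over cells. The median barcode had 0.107%, 0.202%, 0.0918% and 0.0448% of its UMIs in the members from baseline to resolution, while the highest barcode of each library reached 3.85%, 7.68%, 6.32% and 3.26%. At least 1% was reached by 17 barcodes at baseline (1.59%, interval 0.927 to 2.53), 649 at the peak (10.9%, 10.1 to 11.7), 54 at the plateau (1.91%, 1.44 to 2.48) and 31 at resolution (0.672%, 0.457 to 0.953). With each barcode thinned to 2000 UMIs, which left out 83, 444, 422 and 572 shallower ones, these shares were 1.62%, 11.8%, 2.16% and 0.644%. The 1% line is a point in a continuous range: 342 peak barcodes lay between 0.8% and 1.2%. The 10% of barcodes with the highest score held 40.4%, 46.5%, 36.3% and 41.6% of the member UMIs. A barcode at or above 1% had UMIs of a median of 30 of the 43 members at the peak, against 10 over all peak barcodes.

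The barcodes at or above 1% also stood higher in markers of classical monocytes. All 7 listed markers of that type were detected in them in each library, and their summed level was 5394 to 8538 CPM, against 1277 to 4190 in the other barcodes. The resident macrophage list stood at 52.8 against 4207 at baseline, with 7 of its 12 genes at 0 in the high barcodes, and at 690.7 against 755.6 at the peak. The list of MHC class II monocyte-derived cells, with none of its 7 genes at 0, stood at 8750 against 5705 CPM at baseline, 12105 against 7999 at the peak and 15410 against 5187 at the plateau, but at 8253 against 14548 at resolution. Mast cell markers stood at 3584 CPM in the high barcodes at resolution and 47.3 in the others there, and 2 of the 31 high barcodes lay in the mast cell-like cluster 24. The part of these cell types in the spread was not tested, and the spread within clusters is given with the concentration values.

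**Figure D2:**
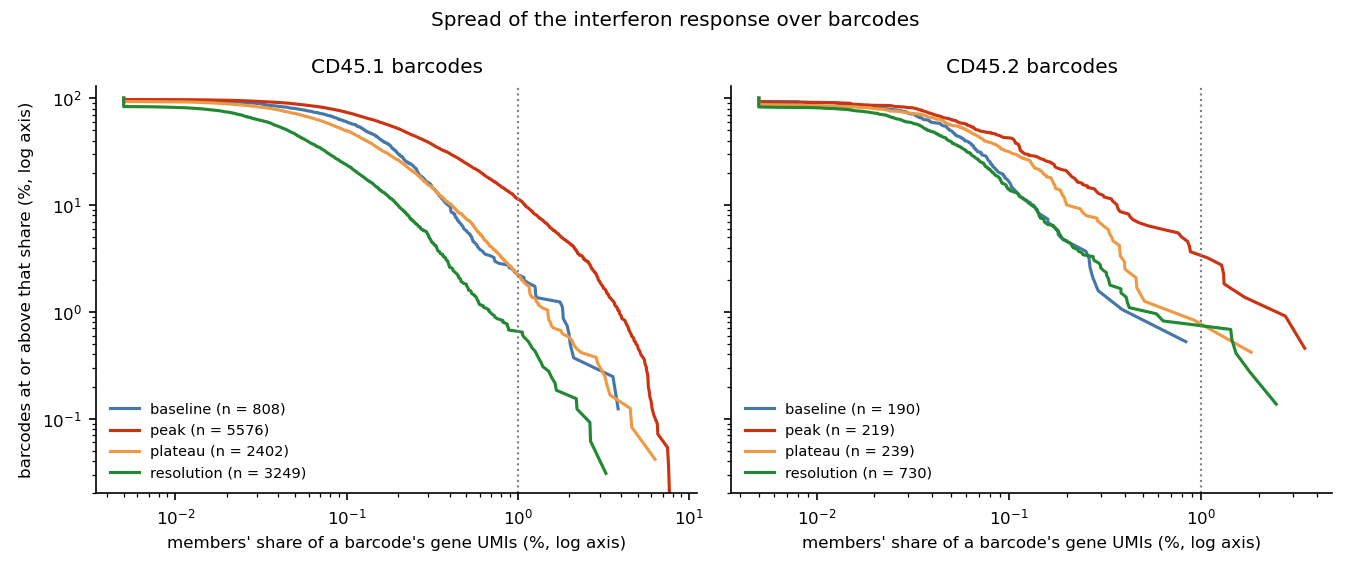
Share of barcodes (%, log axis) at or above a given share of UMIs in the members (%, log axis), for CD45.1 and CD45.2 barcodes of each library, with barcodes without a member UMI drawn at the left edge and a dotted line at 1%. The CD45.1 curve of the peak lies furthest right, with 635 of 5576 barcodes past the line, and the CD45.2 curves end sooner.

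How closely each member followed the others was measured by its concentration, the share of its thinned UMIs that lay in the 10% of barcodes highest in the sum of the other members. A gene unrelated to the programme would have about 10%. Over members with at least 20 thinned UMIs the median concentration was 34.9%, 41.8%, 37.6% and 39.2% from baseline to resolution, against medians of 9.27% to 9.93% for 3071 other genes. The members above the 95th percentile of those other genes numbered 34 of 35, 42 of 43, 38 of 39 and 35 of 37. Ranked within each cluster, an alternative chosen after seeing the data, the medians were 26.2%, 28.3%, 31.4% and 28.7%, so part of the concentration lay within clusters. These values are a description, since the members were chosen as one programme.

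Members were ranked where they had at least 20 thinned UMIs in each library. The unranked ones went at the peak from 24.6% (Cxcl9) to 85.1% (Ifit1bl1), with Ifit3b at 82.8% and Ifit1 at 76.6%. The most concentrated of the ranked members were Ifit3 (81.1%, 78.9%, 87.4% and 88.6% from baseline to resolution), Ifit2 (75.8%, 82.9%, 95.9% and 63.1%), Rsad2 (69.5%, 77.2%, 86.2% and 75.6%), Cxcl10 (74.1%, 85.2%, 79.0% and 49.99%) and Cmpk2 (52.6%, 73.6%, 61.4% and 54.8%). Cmpk2 thus stood with Rsad2 by cell while its level at the peak had risen less. At the other end were Irf9 (18.0%, 11.8%, 13.6% and 22.6%), Igtp, an immunity-related GTPase (5.22%, 46.4%, 28.0% and 16.2%, with 24 thinned UMIs at baseline), Bst2 (25.8%, 26.9%, 25.7% and 25.4%), Gbp7 (27.7%, 41.8%, 24.1% and 13.1%) and Ifih1, the gene of the RNA sensor MDA5 (18.0%, 37.9%, 29.3% and 25.1%). Irf9 lay inside the range of other genes at the peak and the plateau and above their 95th percentile (15.3% and 17.8%) at baseline and resolution. An ISRE core was found for 3 of the 5 most and 4 of the 5 least concentrated members. Thinned to 1000 UMIs, 3 of the top 5 and 2 of the bottom 5 were the same genes, with Irf9 lowest in both. Ifit2, Cmpk2, Igtp and Gbp7 had too few thinned UMIs for a mean at that depth and so could not be ranked. Ifih1 had a mean of 32.5% there and left the bottom 5.

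Among the genes outside the list most concentrated with the members (at least 500 UMIs in every library) were Phf11b at a mean of 45.8%, Ifi209 at 43.3%, Ifi211 at 41.7%, Ifi203 at 35.7%, Ms4a4c at 35.4% and Mndal at 32.9%, all of them on the list of further pathway genes. Rnf213, a large ubiquitin ligase, at 31.1%, and Ly6c2, a classical monocyte marker, at 29.9% were not on it. The likeness is over barcodes of 4 libraries, which share depth and cell makeup.

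**Figure D3:**
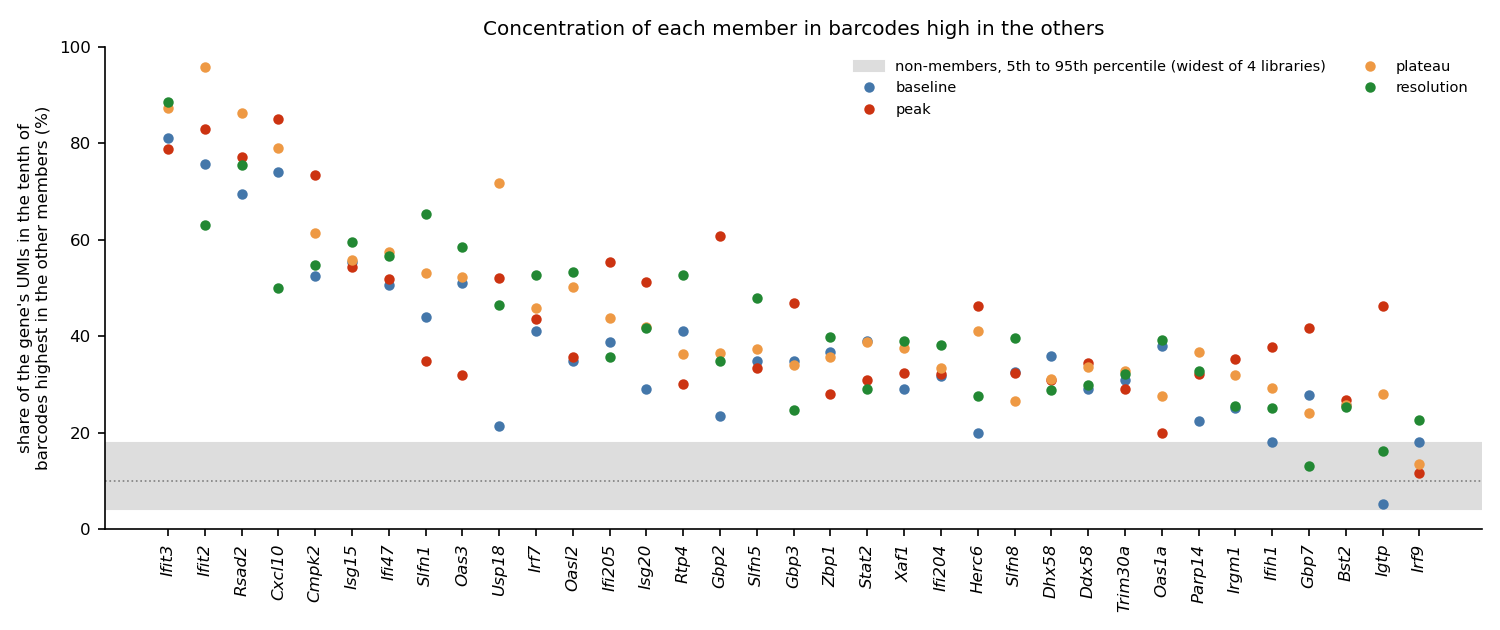
Share of each member's thinned UMIs (%) in the 10% of barcodes highest in the other members, by library, for the 35 members with enough UMIs in each, against the range of other genes (grey band, 5th to 95th percentile) and the value of an even spread (dotted line, 10%). Ifit3 has 78.9% to 88.6% and Irf9 11.8% to 22.6%, which lies inside or above the band.

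Surface protein was measured for 1 member. CD317, the protein of Bst2, had 49.9, 116.7, 62.5 and 44.7 antibody UMIs per 10000 from baseline to resolution in the 10% of barcodes highest in the other members, and 22.9, 55.9, 40.2 and 19.4 in the lowest 50%. The ratios were 2.18, 2.09, 1.56 and 2.31, so protein and RNA of Bst2 were higher in the same barcodes in each library. Bst2 RNA stood at 431.6, 791, 554.2 and 260.7 CPM in the first group and at 107.2, 158.9, 128 and 83.3 in the other. Antibodies to CD64, Siglec-1 and CD274, products of further interferon-inducible genes, did not have a ratio above 1 in every library. CD64 was among the targets that the sort excluded. The Siglec-1 antibody was sparse, with means of 0.246 to 0.907 UMIs per barcode over both groups and all libraries. The CD64 antibody (Fcgr1) had ratios of 0.705, 1.36, 1.40 and 1.25, that to Siglec-1 (Siglec1) 0.308, 1.12, 0.746 and 1.43, and that to CD274 (Cd274) 0.327, 1.59, 0.790 and 0.815. The ratios divide by all antibody UMIs, which at baseline averaged 2777 per barcode in the first group and 1510 in the other. Mean antibody UMIs per barcode there were 1.88 and 1.45 for CD64, 0.312 and 0.552 for Siglec-1 and 1.54 and 2.56 for CD274. RNA of Fcgr1 and Siglec1 was higher in the first group in each library, and that of Cd274 in each but baseline.

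Cells were clustered without the members and the further pathway genes, and 36 of the 43 members were highest in cluster 9 at the peak. This cluster was classical monocyte-like by 4 of 7 markers, but its 10 leading genes were all members, Cxcl10, Ifit1bl1 and Ifit3 first. Of its 434 barcodes 421 came from the peak library, 12 from the plateau, 1 from baseline and 0 from resolution, so cluster and library cannot be told apart. The members held 2.04% of its UMIs at the peak (2.03 to 2.06), and 344 of its 421 peak barcodes reached 1%. It made up 7.09% of the peak barcodes and 53.0% of those at or above 1%. Isg15 stood there at 3568 CPM, Cxcl10 at 2553, Irf7 at 1081, Rsad2 at 981.9, Ifit3 at 980.8 and Bst2 at 857.3. At resolutions 0.4 and 1.2 of the clustering the highest cluster at the peak was again classical monocyte-like, with 0.590% and 1.22%.

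Classical monocyte-like cluster 1 varied little next to the libraries as a whole. The 421 peak barcodes of cluster 9, also classical monocyte-like and at 2.04%, were grouped apart from it. The values of cluster 1 thus do not cover all classical monocyte-like barcodes of the peak. The member share of cluster 1 was 0.298%, 0.331%, 0.304% and 0.242% from baseline to resolution. Of clusters with 20 or more barcodes in a library, it was the highest at baseline, plateau and resolution. At the plateau cluster 17 stood at 0.301%, within the counting error, and cluster 9, with 12 barcodes there, had 10 of them at or above 1%. With the clustering at resolution 1.2, another classical monocyte-like cluster led the plateau at 0.626%. In the main clustering, cluster 1 held 11 of the 17 barcodes at or above 1% at baseline and 24 of 31 at resolution. The peak share was 1.11 times that of baseline (1.09 to 1.13), and 2 of 41 members were at least 2-fold higher and 1 lower, shares near or under those of all genes in this cluster (3.75% and 5.57%). Within it Isg15 went from 220.8 to 397 CPM and Cxcl10 from 97.6 to 49.99, with Irf7 at 215.5 and 194.2. Nonclassical monocyte-like cluster 4 stood at 0.174%, 0.143%, 0.152% and 0.121%, with no rise at the peak.

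Resident macrophage-like clusters started low and moved more. Cluster 2, led by Aqp1, stood at 0.0483%, 0.154%, 0.0899% and 0.0415% from baseline to resolution, 3.19-fold higher at the peak than at baseline (2.74 to 3.72). Cluster 10, led by Vsig4 and Lyve1, stood at 0.0601%, 0.125%, 0.0917% and 0.0474%. Cluster 17, led by Ccl8 and Mrc1 and itself small (25, 44, 23 and 72 barcodes), stood at 0.0637%, 0.606%, 0.301% and 0.0864%. Its peak share was 9.51-fold that of baseline (7.80 to 11.7). None of the 1431 barcodes of cluster 2 and none of the 423 of cluster 10 reached 1%, whereas 7 of the 44 peak barcodes of cluster 17 did.

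Clusters found mainly in arthritis ranged widely. The inflammatory macrophage-like cluster 5 had 0.328% at the peak and 0.212% at the plateau, the unnamed cluster 0, led by Dmkn and Aif1, 0.371% and 0.255%, the Spp1 macrophage-like cluster 3 0.163% and 0.0963%, and the osteoclast-like cluster 7 0.108% and 0.0760%. Cluster 0 held 136 of the 649 peak barcodes at or above 1%. The type 2 dendritic cell-like cluster 14 stood at 0.490%, 0.205% and 0.0796% from peak to resolution, and 25 of 40 members were at least 2-fold lower there at the plateau than at the peak and none higher, against 4.68% and 4.64% of all genes in this cluster. In each of these clusters the plateau share lay below the peak share by more than the counting error. Others found mainly at these stages differed. Unnamed cluster 13 went from 0.0714% at the peak to 0.189% at the plateau, 2.65-fold higher (2.23 to 3.16). Its barcodes were shallow, with a median of 717.5 gene UMIs. The 4 members with enough UMIs there were all at least 2-fold higher, and so were 18.6% of all genes in this cluster. Fibroblast-like cluster 16 stood at 0.0854% and 0.0835%, a ratio of 0.977 (0.900 to 1.06).

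**Figure D4:**
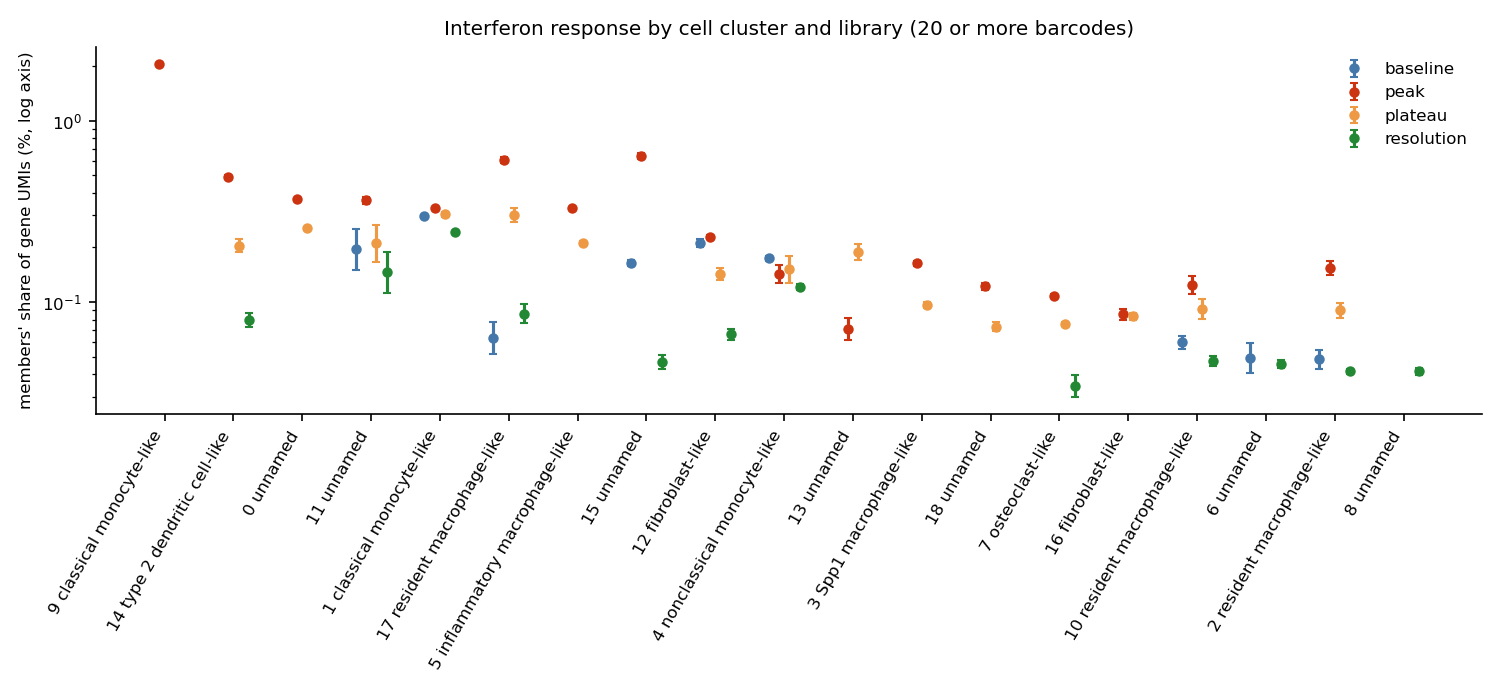
Members' share of gene UMIs (%, log axis) in each cluster and library with 20 or more barcodes, with 95% binomial intervals as bars. Cluster 9 stands at 2.04% at the peak, cluster 1 between 0.242% and 0.331% in all 4 libraries, and resident macrophage-like clusters 2 and 10 under 0.16%.

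Donor and host cells shared each library, so the CD45 variants could be tested over 4 libraries. Members stood higher in the marrow-derived CD45.1 barcodes: their share of UMIs was 0.209%, 0.456%, 0.151% and 0.0760% from baseline to resolution, against 0.0618%, 0.135%, 0.0845% and 0.0591% in CD45.2 barcodes. The ratios were 3.39, 3.37, 1.79 and 1.29, above 1 in 4 of 4 libraries. By edgeR's quasi-likelihood test with the library as a block and Benjamini-Hochberg adjustment over 12556 genes, 28 of the 43 members were higher in CD45.1 and none lower, where 11.1% of all genes were higher and 9.59% lower. The median log2 ratio was 1.46 for the members and 0.00 for all genes, and 39 members had an unadjusted p under 0.05. In such sums, fewer cells of a responding type and less RNA per cell cannot be told apart.

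Slfn1, a growth-restraining Schlafen gene, had the largest difference. It stood at 81.2 and 3.84 CPM in CD45.1 and CD45.2 barcodes at baseline, 149.2 and 13.6 at the peak, 37.4 and 3.77 at the plateau and 18.8 and 3.29 at resolution, higher in CD45.1 in 4 of 4 libraries. Its log2 ratio was 3.67 (SE 0.30, edgeR adjusted p = 0.0021). Irf7 stood at 151.3 and 23.0, 237.9 and 47.0, 62.3 and 27.6, and 38.8 and 16.6 in the same order (2.13, SE 0.34, edgeR adjusted p = 0.0076). Cxcl10 stood at 55.6 and 1.10, 311.9 and 38.9, 45.8 and 14.5, and 14.96 and 10.7 (2.51, SE 0.64, edgeR adjusted p = 0.034), so the gap had nearly closed at resolution. The other called members with the largest log2 ratios were Ifit1bl1 (2.99), Zbp1, a sensor of Z-form nucleic acids (2.44), Slfn4 (2.37), Ifi47 (2.22), Oasl1 (2.21), Isg20, an exonuclease (2.18), Ifit3 (2.17), Ifit2 (2.04) and Oasl2 (2.03).

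Isg15 stood at 143.9 and 14.8, 725.2 and 166.3, 146.7 and 89.3, and 37.3 and 33.1 CPM in CD45.1 and CD45.2 barcodes. It was higher in CD45.1 in 4 of 4 libraries but did not pass (log2 ratio 1.77, SE 0.53, edgeR adjusted p = 0.055). It passed with DESeq2 (adjusted p = 0.0020), which called 34 of 43 members and 1567 of 12556 genes higher. It also passed with edgeR in named monocyte and macrophage clusters alone (adjusted p = 0.0021). There 35 of 41 members and 1716 of 11020 genes were called higher. Bst2 (0.60, edgeR adjusted p = 0.11, and 0.011 in those clusters) and Gbp7 (0.23, edgeR adjusted p = 0.35) did not pass either. By role, 3 of 3 transcription factors, 4 of 5 oligoadenylate synthetases, 3 of 4 Schlafen genes, 4 of 6 sensors, 4 of 6 other effectors, 3 of 5 tetratricopeptide genes, 3 of 6 GTPases, 2 of 4 of the ISG15 system, 1 of 2 chemokines and 1 of the viperin pair were higher in CD45.1. Of the other pathway genes the interferons could not be tested, and 3 of 5 receptors, 4 of 10 transducers, 4 of 9 genes of upstream sensing, 2 of 5 brakes and 23 of 34 further interferon-inducible genes were higher. Ly6a was lower (log2 ratio -1.01, edgeR adjusted p = 0.040). The count of 28 members, with 1393 of 12556 genes higher, was smaller when some libraries were left out. Without the peak library it was 9 of 41 members, with 586 of 12315 genes higher. Without the baseline library it was 18 of 43, with 734 of 13111 genes higher. Slfn1, Rtp4, Slfn4, Zbp1, Usp18, Ifi47, Irf7 and Trim30a were the 8 called with each library left out in turn.

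**Figure D5:**
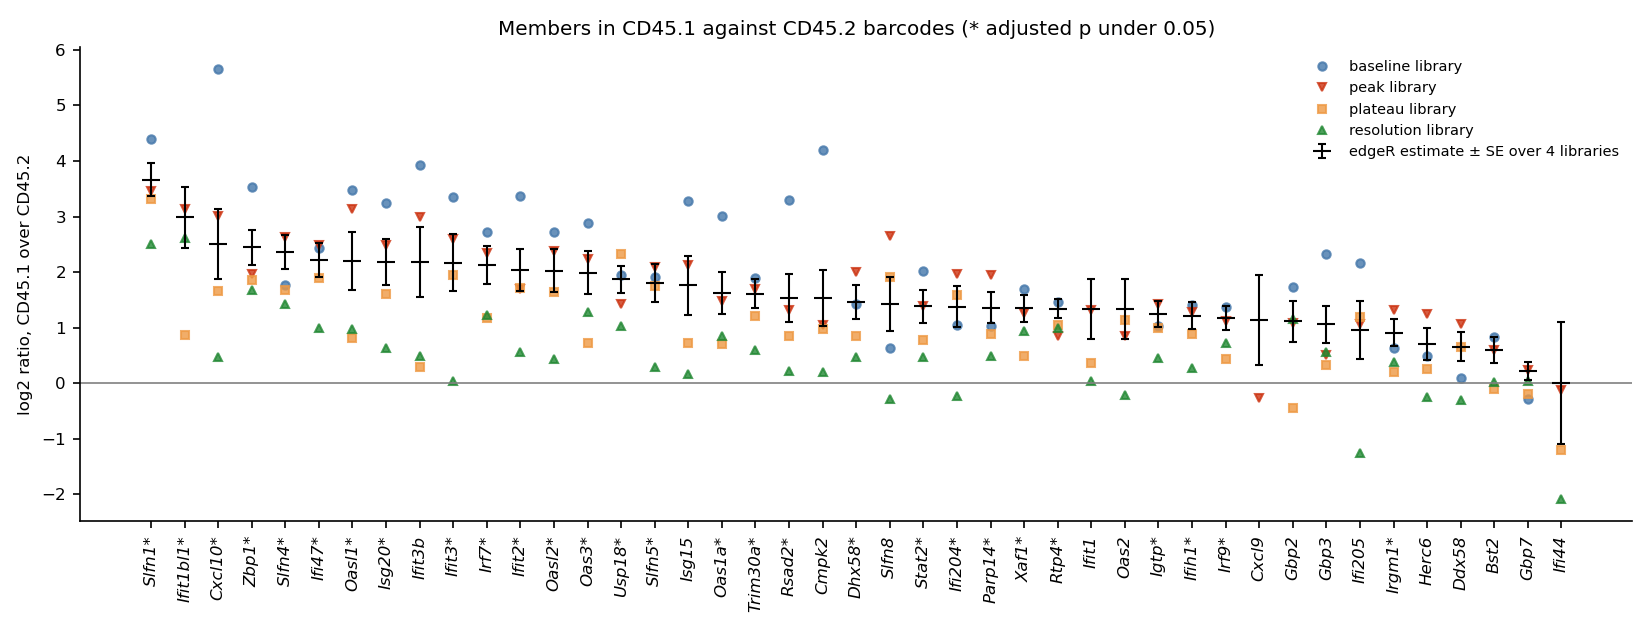
Log2 ratio of each member's CPM in CD45.1 over CD45.2 barcodes, by library (symbols) and as edgeR's estimate over 4 libraries with its standard error (black), for the 43 members in order of the estimate. Slfn1 leads at 3.67, and the points of the resolution library lie closest to 0 for most members.

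The variants also differed in the cells they held. Classical monocyte-like clusters made up 37.3%, 26.1%, 8.33% and 13.5% of CD45.1 barcodes from baseline to resolution and 1.58%, 3.65%, 1.26% and 4.66% of CD45.2 barcodes, while resident macrophage-like clusters made up 3.96%, 0.664%, 2.37% and 26.7% against 79.5%, 32.9%, 33.9% and 66.6%. All 12 resident macrophage markers were detected in both, with a summed level of 3687 to 22009 CPM in CD45.2 and 518.1 to 6670 in CD45.1. With CD45.1 clusters weighted by the makeup of the CD45.2 barcodes, the ratios of the members' share became 1.49, 1.79, 1.01 and 0.953. These rest on 2, 6, 5 and 8 clusters with 10 or more barcodes of both variants, which held 53, 106, 173 and 680 of the CD45.2 barcodes. The members higher in CD45.1 in all 4 libraries then numbered 6, down from 32.

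Within a cluster, comparisons with 20 or more barcodes of each variant went in both directions. In resident macrophage-like cluster 2 the members held 0.0403% of CD45.1 and 0.0391% of CD45.2 UMIs at resolution (ratio 1.03, 0.939 to 1.14), 0.124% and 0.0527% at the plateau (2.36, 1.92 to 2.90) and 0.0415% and 0.0513% at baseline (0.808, 0.619 to 1.05). In classical monocyte-like cluster 1 at resolution they held 0.242% of CD45.1 and 0.289% of CD45.2 UMIs (ratio 0.836, 0.763 to 0.919). In osteoclast-like cluster 7 the ratio was 1.62 at the peak (1.51 to 1.73) and 0.833 at the plateau (0.789 to 0.880). Barcodes at or above 1% numbered 0 of 190 among CD45.2 at baseline, where a count of 0 leaves room for at most 1.58%, then 7 of 219, 1 of 239 and 5 of 730, and among CD45.1 they numbered 17 of 808, 635 of 5576, 53 of 2402 and 21 of 3249.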

How the data were processed

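Each library's deposited matrix holds raw UMI counts per barcode for genes and antibodies. Per the submitters' processing notes, Cell Ranger 6.1.2, Seurat 4.4.0 and the mm10 build were used; no source used here names the step that used Seurat. The members and lists were chosen with earlier results of these data known. No doublet caller was run, and leaving out barcodes where each CD45 antibody gave 10 or more UMIs was an alternative. A barcode was CD45.1 or CD45.2 where log2 of (CD45.1 + 1) over (CD45.2 + 1) antibody UMIs was at least 1 or at most -1. Stage ratios are of summed UMIs in CPM (per 1000000 gene UMIs), counted past 2-fold where both libraries together held 30 UMIs. Leiden clusters (scanpy 1.11.5, leidenalg 0.10.2, resolution 0.8) took names from markers and are written "-like". Cells are not replicates, so UMI sums per library and variant were tested with edgeR 4.0.16 (R 4.3.3, filterByExpr, TMM), with DESeq2 1.42.0 as an alternative and an adjusted p under 0.05 as the threshold; this step was tested on simulated data. The library pairs the 8 sums, since both variants were captured in it together. P-values measure the spread between 4 libraries, each of another stage. Members named with values were, by role, those with the highest level and with the largest and smallest peak-to-baseline ratio, the 12 largest calls between variants, and the 5 most and 5 least concentrated; some others, such as Isg15 between variants and Rtp4 and Cmpk2 between stages, were named after their values were seen. Alternatives added after seeing the data were leaving out cluster 9, ranking within clusters, a minimum of 20 thinned UMIs, the fit without the library block and the weighting by CD45.2 makeup. Some genes among the most concentrated outside the list and among the transducers are not reported here.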

Additional observations from a re-analysis of the deposited data

How the results depend on the processing

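Numbers of mice and mouse-to-mouse spread are not known here, the depth per barcode leaves a member's absence from a barcode without meaning, and the CD45.2 sums are small (190 to 730 barcodes). Stage ratios were followed under the alternatives only for members past 2-fold in the main setting. Of these ratios 521 kept their direction within 1 log2 unit, 24 moved further and 12 turned direction. Of the members' tests between variants, 372 kept their call, 26 were gained and 68 lost. The cause of these changes was not tested unless stated. For stages, members past 2-fold at the peak numbered 32 with TMM totals and 10 without cluster 9. Lower at the plateau than at the peak were 15 in CD45.2 barcodes and 11 with equal weight per cluster; lower at resolution than at the plateau, 21 with a mitochondrial limit of 5% and 8 in CD45.2 barcodes; lower at resolution than at baseline, 1 in CD45.2 barcodes and 6 with equal weight. In CD45.2 barcodes the log2 ratio turned positive for Dhx58 from peak to plateau (0.0090), for Oasl2 (0.0023) and Slfn5 (0.19) from plateau to resolution, and from baseline to resolution for Ifit3 (1.18), Isg15 (1.14), Isg20 (0.91), Rsad2 (0.75), Oasl2 (0.45), Oas1a (0.70), Zbp1 (0.11), Ifi205 (1.58) and Cxcl10 (2.98), where counts are low. The members' share of UMIs, as a mean over barcodes, was 0.173% at baseline, 0.447% at the peak, 0.176% at the plateau and 0.0852% at resolution; with the 5% mitochondrial limit 0.437% at the peak and 0.155% at the plateau; without cluster 9 0.303% and 0.135%; and with at least 1000 genes 0.0726% at resolution. Barcodes at or above 0.5% and 2% in place of 1% were 4.67% and 0.374% at baseline, 23.4% and 4.23% at the peak, 6.65% and 0.460% at the plateau and 1.69% and 0.174% at resolution, and thinning gave 11.8% at the peak. The median concentration over members was 35.2%, and 51.3% in the highest 20% of barcodes and 28.1% within clusters. The highest cluster at the peak had 0.590% and 1.22% at resolutions 0.4 and 1.2. Without the library as a replicate block, which pairs the variants by library, 1 member was called between variants and 245 genes higher and 268 lower. With libraries left out in turn, between 9 and 30 members were called, and between 586 and 1151 genes higher. Weighted by the CD45.2 makeup, the ratio of the members' share was 1.49 at baseline, 1.79 at the peak, 1.01 at the plateau and 0.953 at resolution.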
